A study of Apis mellifera with 18 samples.

Results

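The lncRNAs described here are 58 transcripts that the study's transcript assembly placed in loci without an annotated gene and that reached a mean of at least 1 FPKM (fragments per kilobase of transcript, set against the total of mapped fragments of the library) in the honey bee (Apis mellifera) brain. Their transcript numbers start with TCONS and their locus numbers with XLOC. They lie in 32 loci and are 7.54% of the 769 assembled transcripts in 561 unannotated loci, among 6760 lncRNA transcripts in all. Members were chosen by their mean level over 17 libraries, so levels are given as a description with no test. Just inside the limit were TCONS_00024992 with a mean of 1.12 FPKM, TCONS_00033701 with 1.07 FPKM and TCONS_00068418 with 1.05 FPKM. Just outside it were TCONS_00040553 with 0.999 FPKM, TCONS_00054973 with 0.993 FPKM and TCONS_00048547 with 0.991 FPKM.

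The brains came from caged worker bees kept from emergence in 6 groups, DT_1d, DT_5d and DT_10d, fed the neonicotinoid dinotefuran at 0.01 mg/L in sucrose solution, and C_1d, C_5d and C_10d, fed sucrose solution alone. The number in each name is the age in days, which is also the time of feeding, so age and length of exposure cannot be told apart within the DT groups. Each group had 3 libraries, each from pooled brains, so the spread between libraries is a spread between pools. The lncRNA values of DT_1d replicate 1 equal those of DT_10d replicate 1 at all 6760 transcripts, 5002 of them above 0, and were left out of DT_1d. They were kept as DT_10d replicate 1. For TCONS_00086823, TCONS_00086824, TCONS_00030747 and TCONS_00033696 the DT_10d means that the study lists equal those of the DT_10d libraries used here. The DT_1d means it lists for TCONS_00086823, TCONS_00086824 and TCONS_00030747 are not those that the copied values would give. In the study's own means the values thus stood for DT_10d replicate 1. Without DT_10d replicate 1, the members past the limma threshold (adjusted p under 0.05 and a log2 difference beyond 1) numbered 24 in DT_10d over DT_1d in place of 29, 16 in DT_10d over DT_5d in place of 25, and again 2 in DT_10d over C_10d, but with TCONS_00049889 no longer among them. The count for the difference between the age changes of DT and C was again 1. Shares of all features are not given for this fit, so these counts are no result about the members. DT_1d is represented by replicates 2 and 3 alone.

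Long noncoding RNAs are transcripts longer than most small RNAs that are not translated into a long protein. They are known to act in the nucleus on chromatin and transcription and in the cytoplasm on mRNA stability and translation, and many are expressed in few tissues and at low levels. No function is assigned to the loci described here. Neonicotinoids bind the nicotinic acetylcholine receptors of the insect brain. In an assembled locus several transcripts can overlap, and the assembler divides the fragments they share among them, so a level of 1 transcript depends on the others of its locus.

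The libraries differed in scale. The median ratio of the genes of a library to their geometric mean over libraries, used here as a library factor, was between 0.539 and 1.81. Results are given for FPKM as deposited and, where named, after division by this factor (scaled FPKM). The summed FPKM of 7 neuronal markers was 26.9 to 36.9 in DT_1d, 42.2 to 101 in C_1d, 32.8 to 46.2 in DT_5d, 59.6 to 162 in C_5d, 116 to 119 in DT_10d and 68.4 to 107 in C_10d, and none of the 7 was at 0. The sum of 6 hypopharyngeal gland markers, which include the royal jelly protein genes, was 113582 to 150457 in DT_1d, 38080 to 128986 in C_1d, 100613 to 160791 in DT_5d, 76053 to 88169 in C_5d, 13919 to 19331 in DT_10d and 21026 to 48272 in C_10d. The sum of 5 fat body markers was 21.2 to 48.0 in DT_1d, 20.5 to 44.8 in C_1d, 16.9 to 27.8 in DT_5d, 21.6 to 28.3 in C_5d, 8.14 to 12 in DT_10d and 7.77 to 19.7 in C_10d. It did not overlap between DT_10d and DT_1d, nor between C_10d and C_1d. C_1d replicate 1 stood apart from its group, with a library factor of 1.65 against 0.830 and 0.770 and a gland sum of 38080 against 114468 and 128986. In such bulk samples fewer cells of a type and less RNA per cell cannot be told apart, and the part of these markers in the changes below was not tested.

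The level was concentrated in few transcripts. The 3 highest members held 82.8% of the summed level of all members, and XLOC_027970, XLOC_009318 and XLOC_010252, with 14 members, held 93.3%. Only 4 members had a mean of at least 100 FPKM, 7 had 10 to 100 FPKM and 47 had under 10 FPKM, 22 of these between 1 and 2 FPKM. The median of the member means was 2.66 FPKM, with 1.81 FPKM for 135 annotated lncRNAs and 2.07 FPKM for 281 assembled lncRNAs within annotated genes chosen by the same limit. A value above 0 in every one of the 17 libraries was found for 39 members, which is 67.2%, with 88.9% of the annotated lncRNAs and 85.1% of those within annotated genes. The median coefficient of variation over libraries was 0.776 for the members, 0.606 for the annotated lncRNAs and 0.583 for those within annotated genes. These differences between classes are descriptions without a test. Among the members the coefficient was 0.600 for those above 0 in every library and 1.82 for the 19 with a 0.

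**Figure D1:**
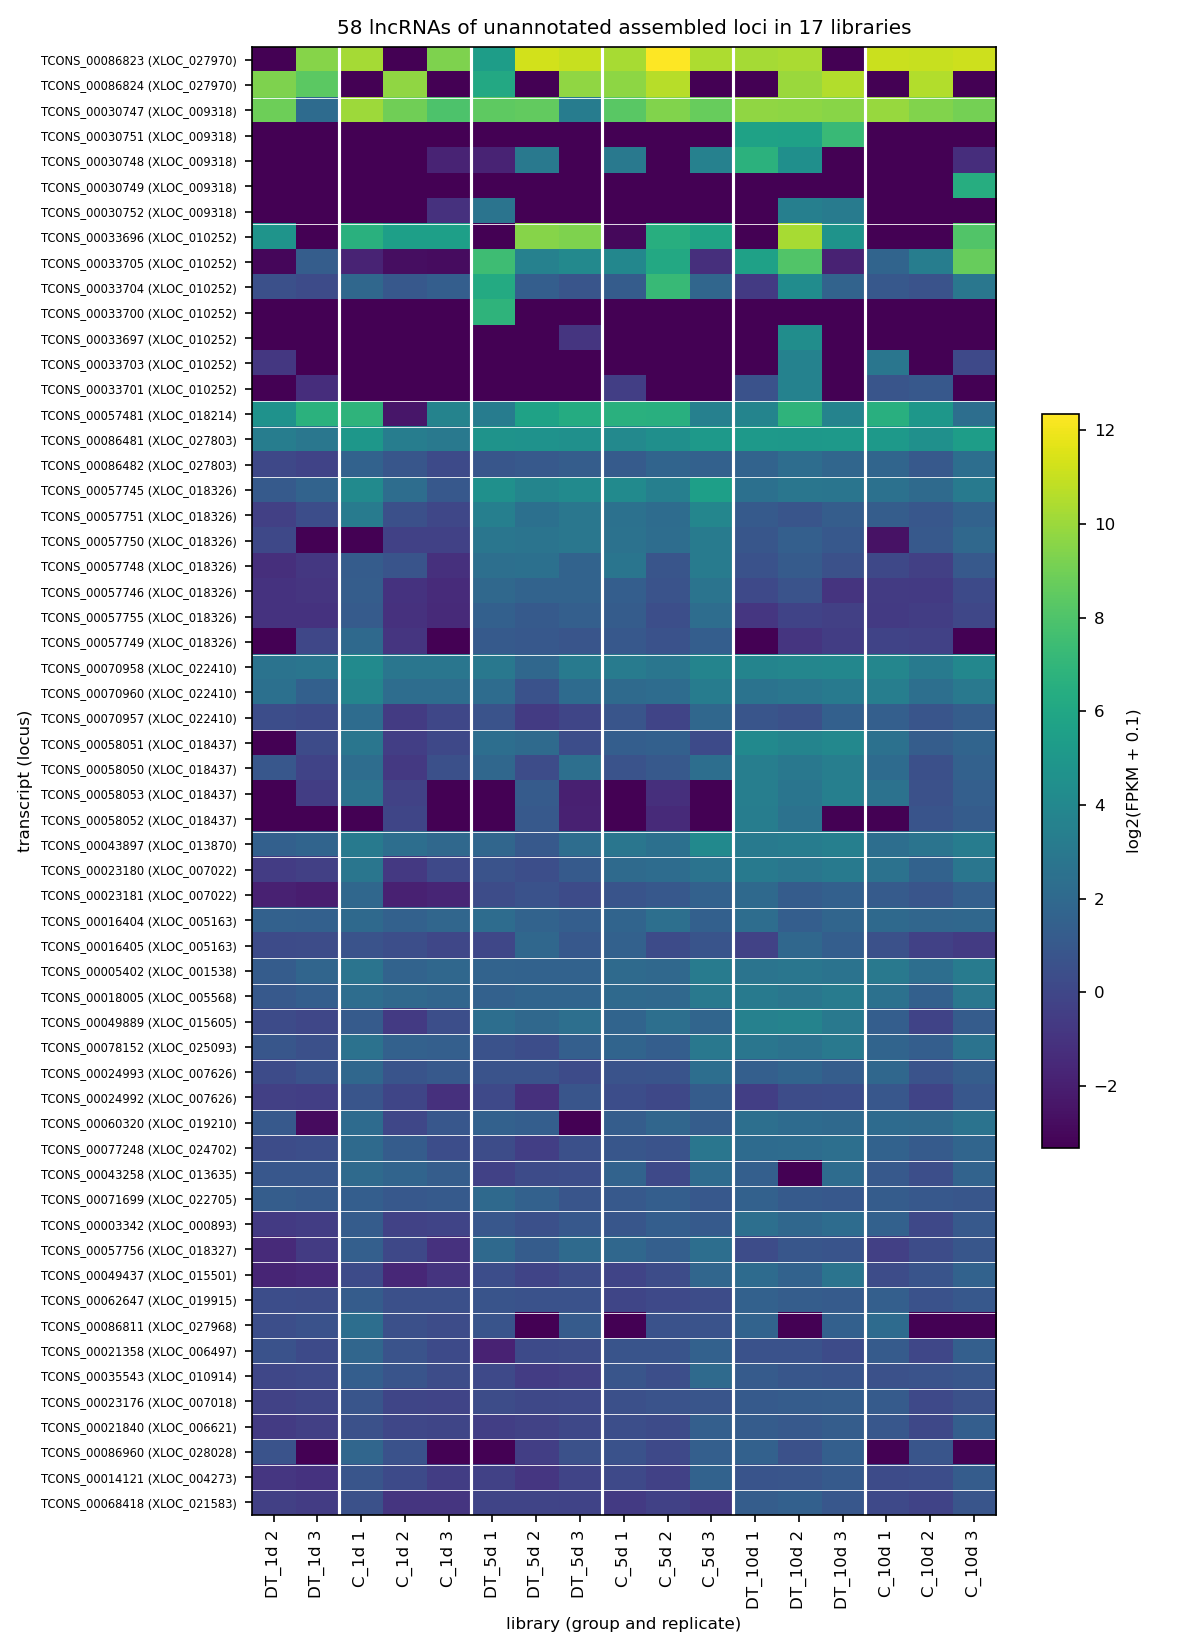
Levels of the 58 members (rows, grouped by locus, the loci in order of their level) in 17 libraries (columns, DT left of C at each age), as log2(FPKM + 0.1). The top row has a mean of 1417 FPKM, 47 members have a mean under 10 FPKM, and 19 have a value of 0 in at least 1 library.

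TCONS_00086823 had the highest mean of all members, 1417 FPKM, and shared XLOC_027970 with TCONS_00086824, mean 540 FPKM, the only other listed transcript there. TCONS_00086823 was at 0 and 725 FPKM in DT_1d, against 1193, 0 and 626 FPKM in C_1d. At 5 d it was at 42.5, 2427 and 2129 FPKM in DT_5d, against 1276, 5205 and 1363 FPKM in C_5d. At 10 d it was at 1228, 1302 and 0 FPKM in DT_10d, against 2140, 2110 and 2323 FPKM in C_10d. The libraries overlapped at 1 and 5 d, and at 10 d all DT_10d libraries were below all C_10d libraries, but the log2 difference of -5.33 (SE 3.60) had an adjusted p of 0.654 in limma. The zeros were matched by its partner. TCONS_00086824 was at 636 and 342 FPKM in DT_1d, against 0, 854 and 0 FPKM in C_1d. It was at 71.1, 0 and 841 FPKM in DT_5d, against 829, 1606 and 0 FPKM in C_5d. It was at 0, 1025 and 1488 FPKM in DT_10d, against 0, 1488 and 0 FPKM in C_10d. In 10 of 17 libraries a single transcript held over 99% of the locus, TCONS_00086823 was the higher of the pair in 13, and no library was without the locus. The exchange of the leading transcript took place between libraries of the same group, for example in C_1d and in DT_10d. The sum of both transcripts varied less than either, and was 1228, 2327 and 1488 FPKM in DT_10d, against 2140, 3598 and 2323 FPKM in C_10d, groups that overlapped. The lowest sum was 114 FPKM, in DT_5d replicate 1, and the highest 6811 FPKM, in C_5d replicate 2.

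**Figure D2:**
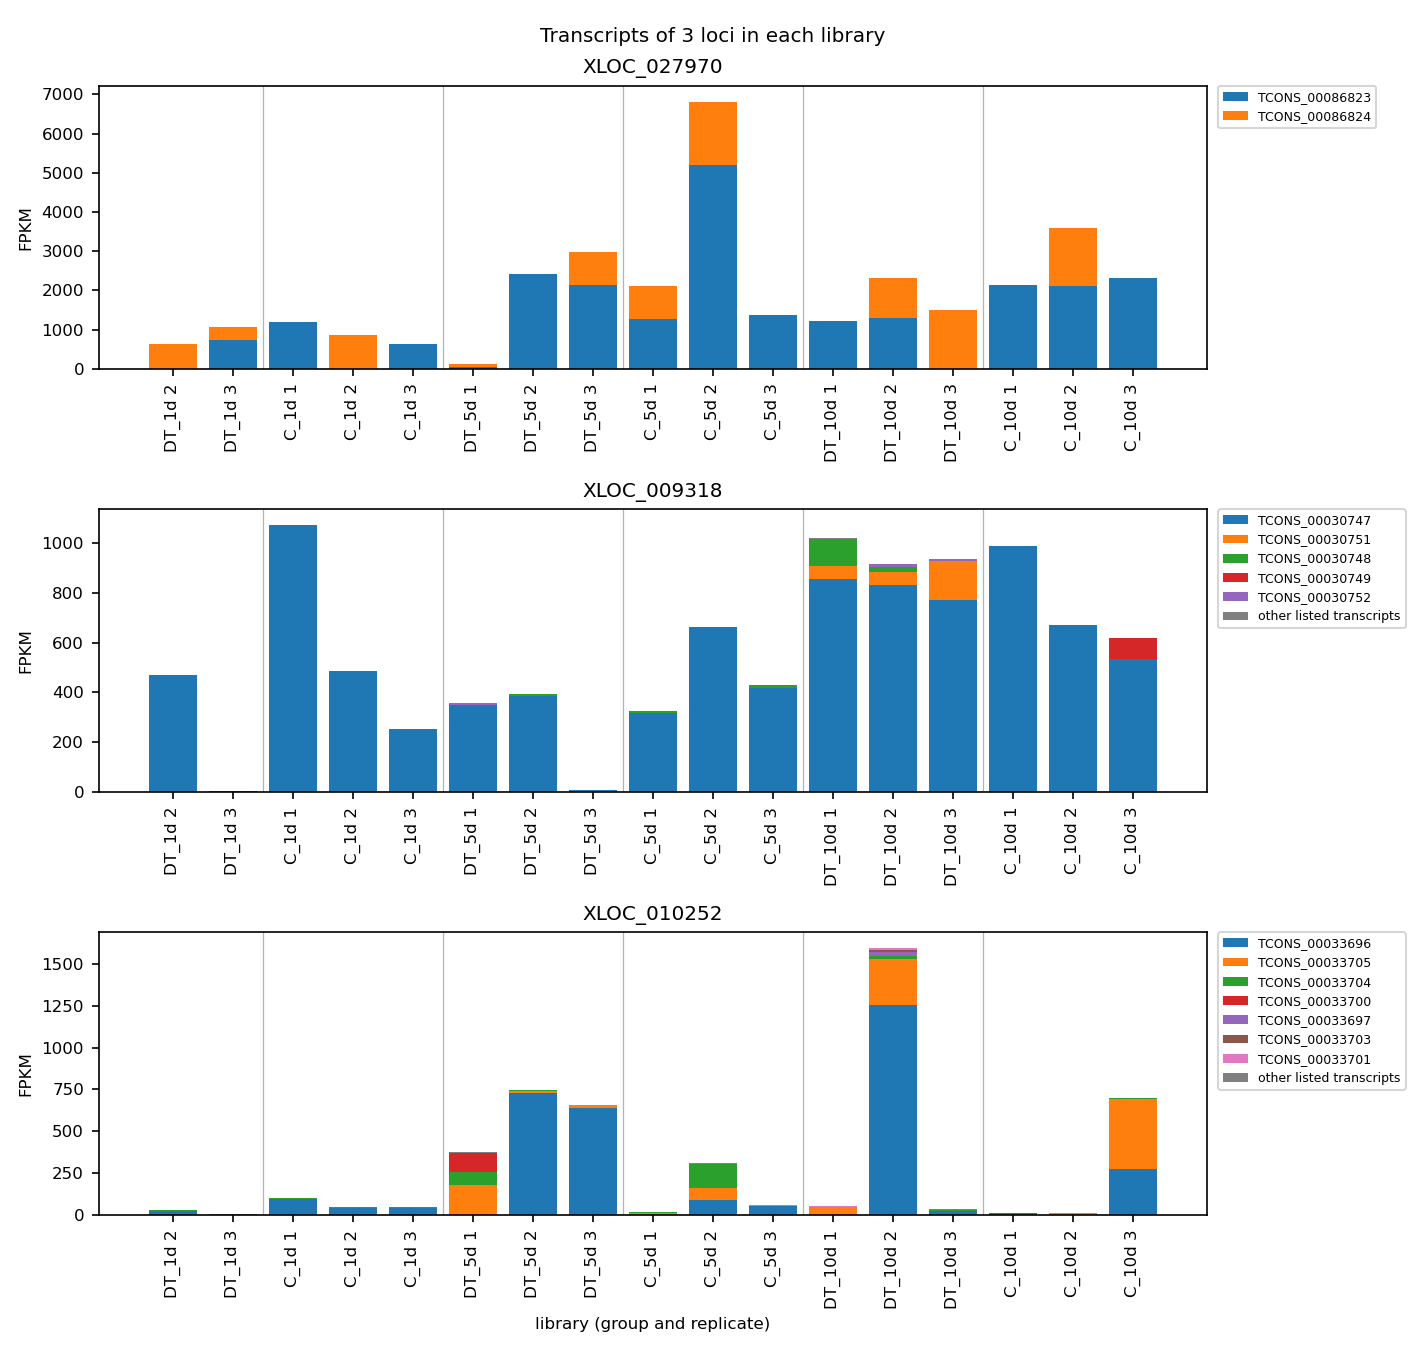
FPKM of the transcripts of the 3 highest loci, stacked per library, with DT left of C at each age. In XLOC_027970 the leading transcript differs between libraries of 1 group, in XLOC_009318 TCONS_00030747 leads everywhere and TCONS_00030751 stands only in DT_10d among the libraries shown, and in XLOC_010252 the highest sum, 1593 FPKM, is in DT_10d replicate 2.

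XLOC_009318 held 5 members and was led in all 17 libraries by TCONS_00030747, mean 534 FPKM, whose share of the locus was never under 82.1%. TCONS_00030747 was at 471 and 4.30 FPKM in DT_1d, against 1072, 485 and 253 FPKM in C_1d. It was at 350, 384 and 9.39 FPKM in DT_5d, against 318, 664 and 419 FPKM in C_5d, and DT_1d replicate 3 and DT_5d replicate 3 thus lay far below every other library. At 10 d the groups overlapped, with 855, 832 and 769 FPKM in DT_10d, against 988, 671 and 533 FPKM in C_10d. The increase in DT_10d over DT_1d had a log2 value of 4.17 (SE 1.46, adjusted p = 0.0205) and did not pass the test after scaling (3.01, SE 1.67, adjusted p = 0.188).

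The minor transcripts of XLOC_009318 were found in few libraries. TCONS_00030751 was at 52.5, 50.8 and 159 FPKM in DT_10d and was listed at 0 in C_10d and in all libraries of 1 and 5 d that were used, so no fold is given. It became a member and passed the filter for testing through the DT_10d libraries alone, so it had to differ in every comparison with DT_10d, and its calls below are no support for a difference. TCONS_00030748 was at 107, 21.8 and 0 FPKM in DT_10d, against 0, 0 and 0.314 FPKM in C_10d, and reached 12 FPKM in C_5d replicate 3. TCONS_00030752 was at 0, 10.9 and 8.91 FPKM in DT_10d and at 0 in C_10d, with a further 6.42 FPKM in DT_5d replicate 1. The only library with TCONS_00030749 was C_10d replicate 3. TCONS_00030751 is thus the one minor transcript whose DT_10d libraries all lay above all C_10d libraries. Its share of the locus was 9.21% ± 6.69 in DT_10d (SD, n = 3), against a share of 0 in C_10d, while the share of TCONS_00030747 was 85.6% ± 4.63 in DT_10d and 95.3% ± 8.11 in C_10d (SD, n = 3 each).

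Switches were tested as the log2 ratio of a transcript to the sum of the other lncRNAs of its locus, with limma over 1701 transcripts, of which 38 were members in 15 loci. Between DT and C the only member past the threshold at any age was TCONS_00030751 at 10 d, where its selection fixed the direction, with 0.47% of all 1701 transcripts called at any age and 0.118% at 10 d. At 10 d 2 of the 1701 transcripts were called, as many as in simulated data in which none was changed. The call of TCONS_00030751 was lost with a pseudocount of 1 and with other filters. It was also lost without any 1 of 9 libraries, among them each of the 6 libraries at 10 d. The same ratio did not pass between DT_10d and DT_1d (adjusted p = 0.275). With age no member passed, with 5 at an unadjusted p under 0.05 and a log2 change beyond 1. Of all transcripts 0.412% were called.

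The transcripts of XLOC_010252 changed places most often, with 7 members and 5 different leading transcripts over the 17 libraries. TCONS_00033696, mean 193 FPKM, was at 27.1 and 0 FPKM in DT_1d, against 96.9, 45.1 and 45.2 FPKM in C_1d. It was at 0, 732 and 641 FPKM in DT_5d, against 0.0272, 90.3 and 57.2 FPKM in C_5d. It was at 0, 1254 and 26.2 FPKM in DT_10d, against 0, 0 and 273 FPKM in C_10d. All groups except C_1d held a library at or close to 0, and the highest value came from 1 library of DT_10d. TCONS_00033705, mean 61.9 FPKM, was at 0.0192 and 2.35 FPKM in DT_1d, against 0.193, 0.0514 and 0.0453 FPKM in C_1d. It was at 180, 11.9 and 16.6 FPKM in DT_5d, against 15.1, 69.4 and 0.336 FPKM in C_5d. It was at 50.5, 274 and 0.187 FPKM in DT_10d, against 3.24, 10.0 and 418 FPKM in C_10d. DT and C overlapped at each age, and every C_10d library was above every C_1d library. The positions that the study lists for TCONS_00033696 and for TCONS_00030747 of XLOC_009318 overlap on the same chromosome. Their strands are not given there, and whether the 2 loci share fragments was not tested, so their levels may not be independent.

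In the controls the balance of XLOC_010252 differed between ages without passing the test. TCONS_00033696 held 13.0% of the locus in C_10d and 95.6% in C_1d, groups that did not overlap (adjusted p = 0.436). TCONS_00033705 held 52.7% in C_10d and 0.132% in C_1d, again without overlap (unadjusted p = 0.00821 in limma, adjusted p = 0.259). TCONS_00033704, mean 16.3 FPKM, had its highest values of 75.2 FPKM in DT_5d replicate 1 and 148 FPKM in C_5d replicate 2. Its other libraries were at 19.4 FPKM or less. The sum of the locus was 376, 746 and 659 FPKM in DT_5d, against 18, 313 and 61.1 FPKM in C_5d, and all DT_5d libraries were higher. At 10 d the sums overlapped, with 52.5, 1593 and 34.3 FPKM in DT_10d, against 13.8, 13.4 and 700 FPKM in C_10d.

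Of the 58 members, 55 passed the filter of 0.1 FPKM in at least 3 libraries and were tested. The others were TCONS_00033700, present only in DT_5d replicate 1 at 118 FPKM, TCONS_00030749, present only in C_10d replicate 3 at 86.8 FPKM, and TCONS_00033697, with 97.9% of its level in DT_10d replicate 2 at 20.5 FPKM. They had the highest coefficients of variation, 4.12, 4.12 and 4.03, followed by TCONS_00030748 with 2.80. In 8 members 1 library held more of the level than all others together. A call below means a limma adjusted p under 0.05 over 13730 genes and lncRNAs and a log2 difference beyond 1. Members counted below at an unadjusted p under 0.05 also had a log2 difference beyond 1.

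Between DT and C few members differed. At 1 d no member of 55 was called, with 3 at an unadjusted p under 0.05 and 0.0146% of all features called. At 5 d none was called, with 0.189% of all features called. An unadjusted p under 0.05 and a log2 difference beyond 1 were found for 6. At 10 d 2 members were called, TCONS_00030751, whose selection fixed the call, and TCONS_00049889, both higher in DT_10d, with 9 at an unadjusted p under 0.05, 0.524% of all features called and 0.401% called higher. Scaling left 0 calls at 1 d (0.0583% of features) and 2 at 10 d (0.699%, 0.422% higher), the same members, and gave 1 call at 5 d (0.626%). Over all ages together none was called with either values, with 0% of features called as deposited and 0.124% after scaling. As deposited 2 members had an unadjusted p under 0.05 and a log2 difference beyond 1. The median log2 difference of the members as deposited was -0.75 at 1 d, -0.47 at 5 d and 0.37 at 10 d, where that of all features was -0.60, -0.63 and 0.30. After scaling the members' medians were -0.22, 0.21 and 0.09.

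TCONS_00049889, the only listed transcript of XLOC_015605, was the called member that had not been selected through DT_10d alone, and it was upregulated in DT_10d. It was at 11.5, 12.6 and 7.91 FPKM in DT_10d, against 2.44, 0.805 and 2.23 FPKM in C_10d, without overlap. The log2 difference was 2.60 (SE 0.45, adjusted p = 0.0163), and 2.29 (SE 0.38, adjusted p = 0.0113) after scaling. The mean was 5.86 times as high in DT_10d, and 5.03 times on scaled FPKM. At 5 d the groups overlapped as deposited, with 5.01, 3.84 and 5.16 FPKM in DT_5d, against 3.15, 5.16 and 3.42 FPKM in C_5d. On scaled FPKM all DT_5d libraries (6.24 to 6.97) were above all C_5d libraries (1.89 to 5.42), without a call (log2 1.02, limma adjusted p = 0.162). At 1 d it was at 1.10 and 0.899 FPKM in DT_1d, against 2.20, 0.526 and 1.23 FPKM in C_1d. As deposited the level in DT was thus higher at each later age, while in C it was highest at 5 d. On scaled FPKM DT_10d (5.15 to 8.29) overlapped with DT_5d. The DT_10d over C_10d call was lost without C_10d replicate 2 (2.12), DT_10d replicate 1 (2.53) or DT_10d replicate 2 (2.47). The difference between the age changes of DT and C had a log2 value of 2.78 (SE 0.68, adjusted p = 0.140) and did not pass. Beside this result, the gland sum was 13919 to 19331 in DT_10d and 21026 to 48272 in C_10d, and the neuronal sum 116 to 119 in DT_10d and 68.4 to 107 in C_10d.

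Other members were high in DT_10d without passing the test, and are named after their values were seen. TCONS_00003342, alone in XLOC_000893, was at 5.18, 3.68 and 4.46 FPKM in DT_10d, against 2.78, 0.955 and 1.96 FPKM in C_10d, without overlap (log2 1.29, SE 0.42, adjusted p = 0.222). In XLOC_018437, TCONS_00058051 was at 17.2, 13.5 and 15.8 FPKM in DT_10d, against 5.66, 2.41 and 3.15 FPKM in C_10d (log2 2.1, adjusted p = 0.372). TCONS_00058050 of the same locus was at 10.5, 7.60 and 10.4 FPKM in DT_10d, against 4.43, 1.29 and 2.76 FPKM in C_10d (log2 1.86, adjusted p = 0.319). In both the groups did not overlap. In all, 9 tested members had every DT_10d library above every C_10d library and 1 had every one below, with 23.8% of all features without overlap in either direction. Among the 9 were TCONS_00030751 and TCONS_00068418, which reached a mean of 1 FPKM only with their DT_10d libraries. After scaling these counts were 8 and 5, with 23.5% of features.

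**Figure D3:**
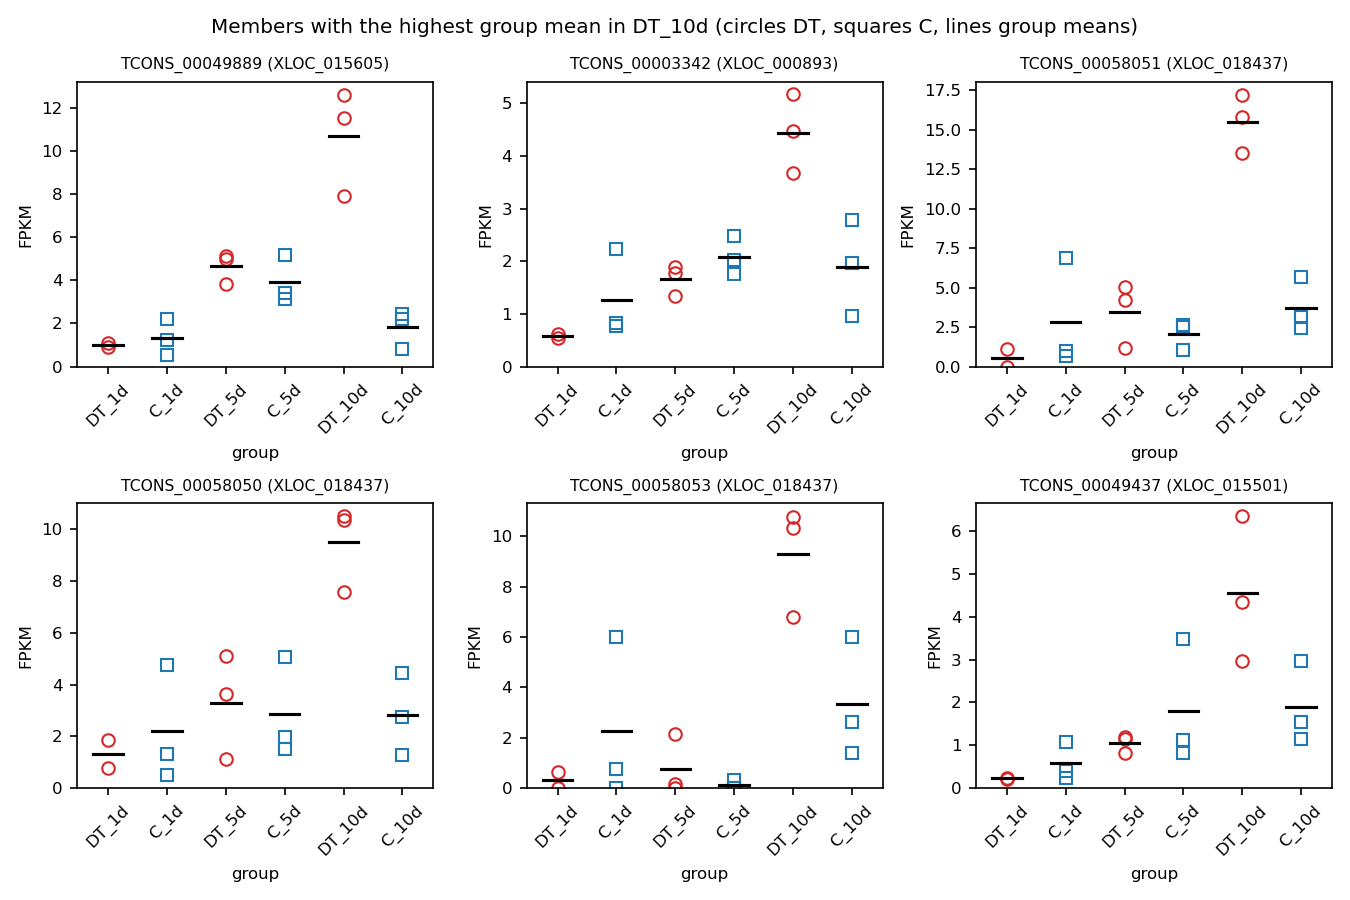
FPKM per library (points) and group means (lines) of 6 members with their highest group mean in DT_10d, with DT left of C at each age. TCONS_00049889 is at 7.91 to 12.6 FPKM in DT_10d and at 0.805 to 2.44 FPKM in C_10d, and of the 6 it alone passed the test between these groups.

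At 5 d the 1 call after scaling was TCONS_00062647 of XLOC_019915. It was at 1.55, 1.42 and 1.44 FPKM in DT_5d, against 0.855, 0.998 and 1.16 FPKM in C_5d, without overlap. The log2 difference was 0.51 (SE 0.32, adjusted p = 0.234) as deposited and 1.23 (SE 0.22, adjusted p = 0.0183) after scaling. It was among the 4 members with the lowest coefficient of variation, 0.352, after TCONS_00016404 with 0.233 and TCONS_00071699 with 0.244 and before TCONS_00023176 with 0.391. TCONS_00016404 was between 2.46 and 5.23 FPKM in every library. Steadiness depended on the scale, since the coefficient of TCONS_00016404 was 0.376 after scaling and that of TCONS_00070958, the leading transcript of XLOC_022410 with a mean of 10.3 FPKM, was 0.134 scaled and 0.402 as deposited.

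With age the DT groups showed most calls. In DT_10d over DT_1d 29 of 55 members in 20 loci were called, all higher, with 54.3% of all features called and 52.4% called higher. After scaling 10 members in 7 loci were called, all higher, with 14.1% of features called and 7.2% called higher. All 10 were among the 29, and both counts include TCONS_00030751. The 29 also include members that reached a mean of 1 FPKM only with their DT_10d libraries, among them TCONS_00068418 and TCONS_00030752. Their selection favoured an increase, which bears on the count of 29 and on the members' median below. The median log2 difference of the members was 1.69 as deposited and 0.68 after scaling, where that of all features was 1.14 and 0.11. In C_10d over C_1d none was called with either values, with 0.51% of features called as deposited and 0.954% after scaling. As deposited 7 members had an unadjusted p under 0.05 and a log2 difference beyond 1 there. The 10 members had scaled log2 values of 1.02 to 8.96 in DT, the last for TCONS_00030751, and of -0.18 to 1.72 in C, where 8 were above 0. The difference between the 2 age changes was called only for TCONS_00030751, whose selection fixed it, with 12 at an unadjusted p under 0.05 and 0.124% of features called (0.269% after scaling, again with this 1 member), and was not called for the other 9.

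The increases that held after scaling, chosen after their values were seen except for the largest, came from few loci. XLOC_018437 gave 3 of them, and the sum of its 4 transcripts was 39.6 ± 7.39 FPKM in DT_10d (SD, n = 3) and 2.17 ± 0.466 FPKM in DT_1d (SD, n = 2), 18.2 times as high (log2 4.13, SE 0.59, adjusted p = 0.0002, scaled 2.99, SE 0.46, adjusted p = 0.0004). TCONS_00058051 was at 17.2, 13.5 and 15.8 FPKM in DT_10d, against 0 and 1.09 FPKM in DT_1d. TCONS_00058053 was at 10.3, 6.78 and 10.8 FPKM in DT_10d, against 0 and 0.628 FPKM in DT_1d. In DT_5d these transcripts were at 5.02, 4.21 and 1.20 FPKM and at 0, 2.14 and 0.164 FPKM, so the high level was seen at 10 d. The leading transcript of XLOC_018437 differed between libraries, with all 4 leading somewhere and TCONS_00058051 in 11 of 17. In the controls C_1d replicate 1 was high, with 6.90 FPKM of TCONS_00058051 against 0.643 and 0.972 FPKM in the other C_1d libraries.

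TCONS_00023180 and TCONS_00023181, the pair of XLOC_007022, were both higher in DT_10d than in DT_1d. Their balance differed at 5 d, where TCONS_00023180 held 56.4% of the locus in DT_5d and 70.5% in C_5d. These shares did not overlap and did not pass the share test (limma adjusted p = 0.688). TCONS_00023180 was at 8.26, 7.10 and 8.45 FPKM in DT_10d, against 0.591 and 0.670 FPKM in DT_1d (log2 3.46, SE 0.67, adjusted p = 0.0013, scaled 2.37, adjusted p = 0.0027). TCONS_00023181 was at 3.98, 2.30 and 2.69 FPKM in DT_10d, against 0.174 and 0.138 FPKM in DT_1d. All DT_10d libraries were above both DT_1d libraries for each. TCONS_00049437, which led XLOC_015501 in all 17 libraries, was at 4.34, 2.97 and 6.35 FPKM in DT_10d, against 0.210 and 0.243 FPKM in DT_1d (log2 3.77, SE 0.59, adjusted p = 0.0006, scaled 2.78, adjusted p = 0.0003). The level in C was 1.14, 1.55 and 2.97 FPKM in C_10d, against 1.08, 0.241 and 0.402 FPKM in C_1d, without overlap and without a call (scaled adjusted p = 0.0600). TCONS_00049889 had a log2 value of 3.28 (SE 0.50, adjusted p = 0.0005), TCONS_00003342 of 2.73 (SE 0.47, adjusted p = 0.0008) and TCONS_00078152, alone in XLOC_025093, of 2.13 (SE 0.50, adjusted p = 0.0026). Between these ages the gland sum was 13919 to 19331 in DT_10d and 113582 to 150457 in DT_1d, the neuronal sum 116 to 119 in DT_10d and 26.9 to 36.9 in DT_1d, and the fat body sum 8.14 to 12 in DT_10d and 21.2 to 48.0 in DT_1d.

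**Figure D4:**
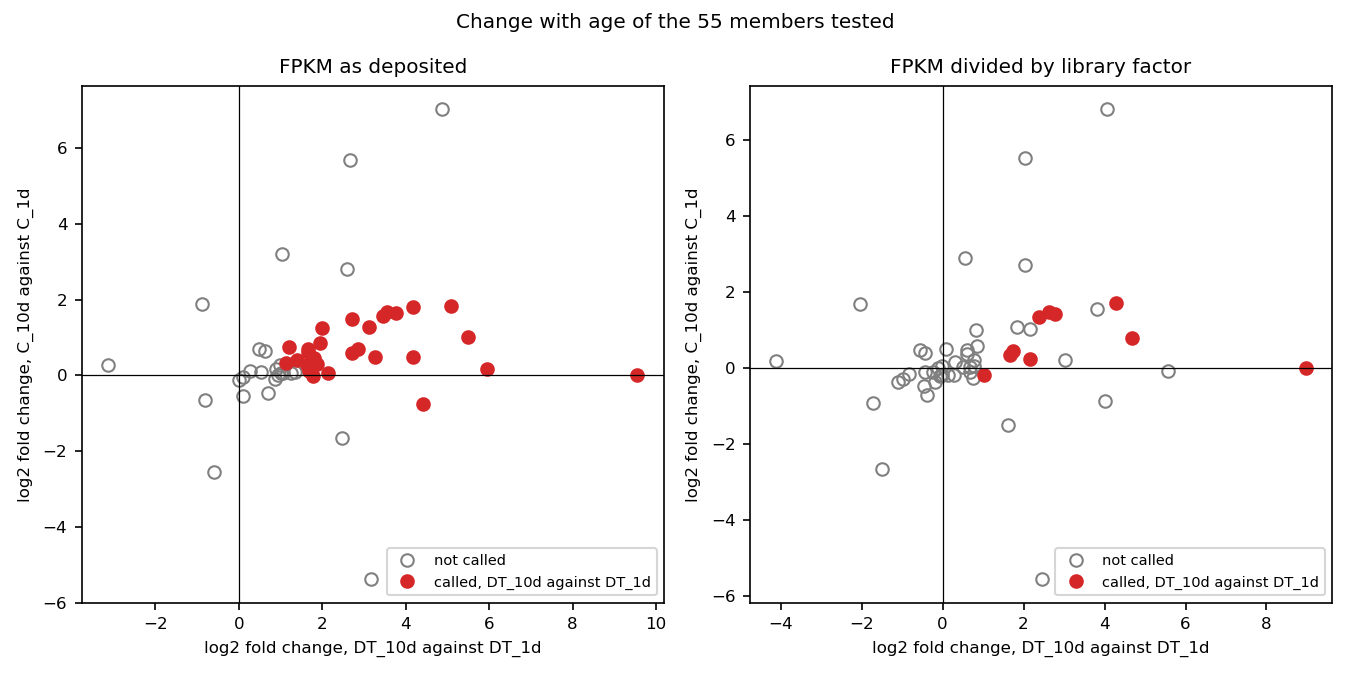
Log2 difference of DT_10d over DT_1d against that of C_10d over C_1d for the 55 tested members (points), as deposited on the left and scaled on the right, with called members filled. Members called in DT_10d over DT_1d as deposited number 29 and after scaling 10, and the value of 9.55 for TCONS_00030751 stands against groups at 0 and depends on the pseudocount of 0.1.

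A group of members was highest at 5 d. XLOC_018326 held 7 members, all led by TCONS_00057745, which had 35.6% to 49.6% of the locus in every library. TCONS_00057745 was at 2.08 and 3.13 FPKM in DT_1d, at 22.8, 14.0 and 18.3 FPKM in DT_5d and at 5.30, 7.02 and 6.60 FPKM in DT_10d. In the controls it was at 18.3, 4.84 and 1.88 FPKM in C_1d, at 17.8, 10.9 and 45.5 FPKM in C_5d and at 5.67, 4.13 and 8.38 FPKM in C_10d. In DT the 5 d libraries lay above both other ages, and in C the 5 d libraries overlapped with C_1d through C_1d replicate 1 alone. The sum of the locus was 46.3 ± 7.75 FPKM in DT_5d (SD, n = 3) and 5.91 ± 1.26 FPKM in DT_1d (SD, n = 2), a log2 difference of 2.95 (SE 0.61, adjusted p = 0.0196, scaled 2.88, adjusted p = 0.0015). In DT_10d it was 14.2 ± 2.06 FPKM (SD, n = 3), lower than in DT_5d by log2 -1.69 (SE 0.55, adjusted p = 0.0165), and scaled by -2.77 (adjusted p = 0.0006). The gland sum was 113582 to 150457 in DT_1d, 100613 to 160791 in DT_5d and 13919 to 19331 in DT_10d.

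TCONS_00057756, alone in the next numbered locus, XLOC_018327, had the same course. It was at 0.267 and 0.548 FPKM in DT_1d, at 3.91, 2.27 and 4.09 FPKM in DT_5d and at 1.14, 1.75 and 1.58 FPKM in DT_10d. In the controls it was at 2.63, 0.961 and 0.380 FPKM in C_1d, at 3.67, 2.61 and 4.86 FPKM in C_5d and at 0.693, 1.15 and 1.71 FPKM in C_10d. The DT_5d libraries were above both other DT ages, and C_5d replicate 2 was just below C_1d replicate 1. Over the 17 libraries the FPKM of the 2 loci had a Pearson correlation of 0.930 (scaled 0.944) and of 0.943 (scaled 0.928) without the 2 libraries farthest from the median. The points share the age groups and the library, and whether the loci adjoin on the genome was not analysed here.

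**Figure D5:**
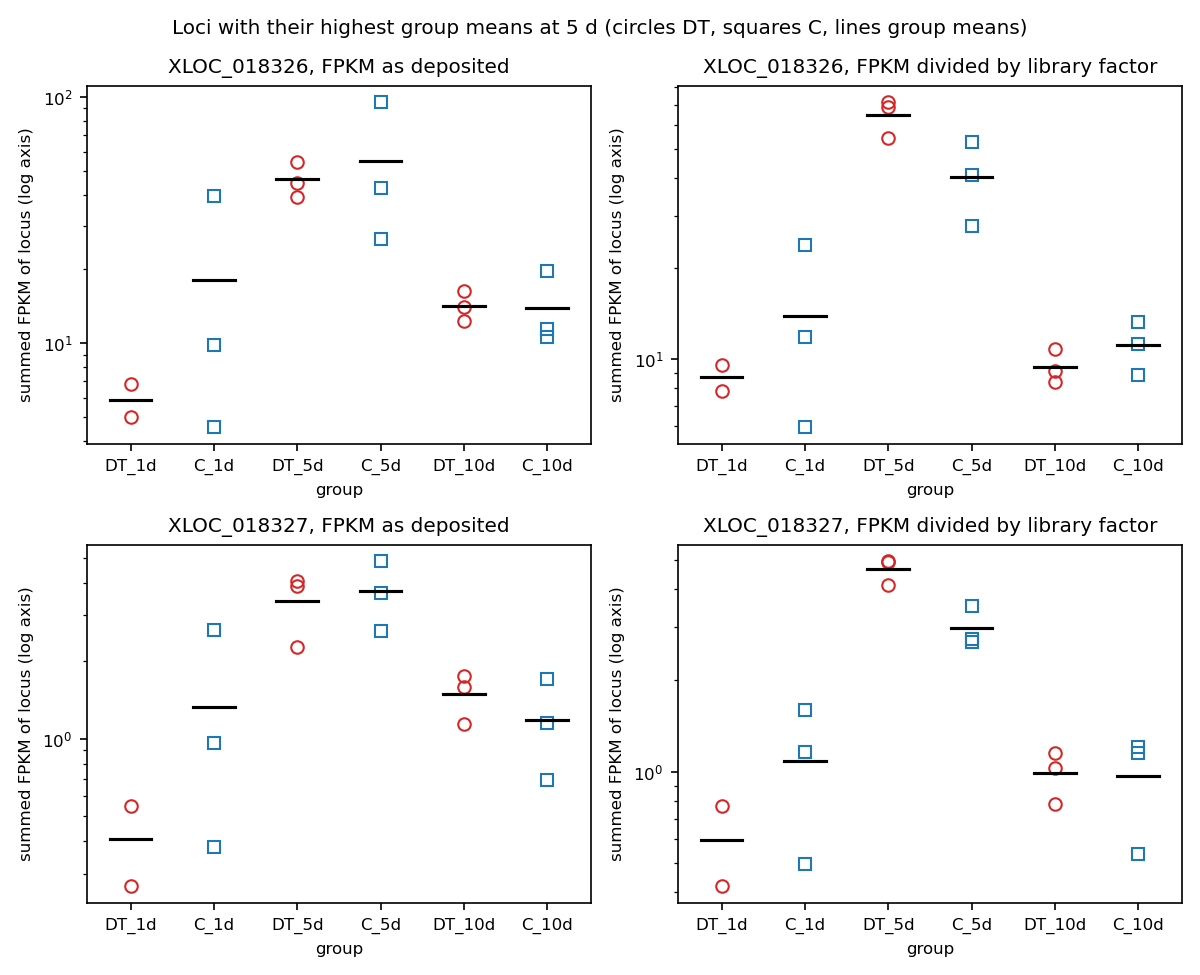
Summed FPKM of XLOC_018326 and FPKM of XLOC_018327 in each library (points) with group means (lines), by age, with DT left of C. Both are highest at 5 d, with 39.3 to 54.6 FPKM for XLOC_018326 in DT_5d, against 5.02 and 6.81 FPKM in DT_1d.

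Comparisons with 5 d were added after the data had been seen. In DT_5d over DT_1d 4 members were called, all higher, with 1.17% of features called and 0.524% called higher. They were TCONS_00057748 (3.18, adjusted p = 0.0301) and TCONS_00057751 (2.92, adjusted p = 0.0474) of XLOC_018326, TCONS_00057756 (2.81, adjusted p = 0.0238) and TCONS_00049889 (2.11, adjusted p = 0.0494). After scaling 12 members in 7 loci were called, all higher, with 4.47% of features called and 2.58% called higher, among them TCONS_00086481, the leading transcript of XLOC_027803 with a mean of 24.5 FPKM. TCONS_00086481 was at 26.2, 25.3 and 23.7 FPKM in DT_5d, against 9.73 and 7.25 FPKM in DT_1d, without overlap (scaled 1.49, SE 0.26, adjusted p = 0.0049). Without DT_1d replicate 2 or any 1 of the DT_5d libraries none was called as deposited, and without DT_1d replicate 3 only 1 was, none of these 4. Without DT_1d replicate 1, of which only the genes were in use, 2 were called. The count was also 2 without C_5d replicate 1, C_5d replicate 2 or any 1 of the DT_10d libraries. Without C_1d replicate 1 11 were called, with 3.35% of features called. Some of these libraries are in neither group and enter through the common spread. Shares of all features are not given for the other fits with a library left out.

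In DT_10d over DT_5d 21 members were called higher and 4 lower, with 42.1% of features called, 41.4% higher and 0.721% lower. After scaling 2 were higher and 7 lower, with 3.83% of features called, 1.49% higher and 2.35% lower, and 6 members were called with both values. The 4 lower ones as deposited were all of XLOC_018326, TCONS_00057751 (-1.86, adjusted p = 0.0207), TCONS_00057746 (-1.82, adjusted p = 0.0242), TCONS_00057755 (-1.80, adjusted p = 0.0171) and TCONS_00057745 (-1.51, adjusted p = 0.0433). Among the higher ones without overlap TCONS_00030751, TCONS_00058053 (4.56), TCONS_00058051 (2.34) and TCONS_00023180 (2.25) had the largest values. TCONS_00033701 had 3.64 (SE 1.31, adjusted p = 0.0299, scaled 3.27, adjusted p = 0.149) with overlap, at 1.44, 12.3 and 0 FPKM in DT_10d and at 0 in DT_5d. It reached a mean of 1 FPKM only with its DT_10d libraries, so its call is no support for a difference. The same holds for TCONS_00068418, which was among the 21 called higher. After scaling TCONS_00030751 and TCONS_00077248 (1.11, SE 0.27, adjusted p = 0.0278) were left. As deposited, 2 members were called without DT_5d replicate 2, 16 without DT_10d replicate 1 and 13 without DT_10d replicate 2. Shares of all features are not given for these fits, so the counts are no result about the members.

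In the controls no member was called between neighbouring ages. In C_5d over C_1d 0 of 55 passed, with 12 at an unadjusted p under 0.05 and 0.0146% of features called, and after scaling 0 with 0.218% of features. In C_10d over C_5d 0 passed, with 10 at an unadjusted p under 0.05 and a log2 difference beyond 1. There 0.211% of features were called, and after scaling 0 members passed, with 0.284% of features. The result for C_5d rested on C_1d replicate 1. Without it 12 members in 7 loci were called in C_5d over C_1d, all higher, with 9.59% of features called. These were 5 members of XLOC_018326, TCONS_00057756 (2.38, SE 0.45, adjusted p = 0.0030), both members of XLOC_007022, TCONS_00049889 (2.1, SE 0.43, adjusted p = 0.0055), TCONS_00003342, TCONS_00049437 and TCONS_00086481. Without the same library 6 members in 4 loci were called in C_10d over C_1d, with 12.6% of features called, and 6 were called lower in DT_5d than in C_5d, with 17.8% of features called. In DT_5d over C_5d 4 were called without C_5d replicate 2. The share of all features is not given for that fit, so this count is no result about the members.

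Among the remaining members of high level, TCONS_00057481, alone in XLOC_018214 with a mean of 51.4 FPKM, varied within groups more than between them. It was at 25.1 and 101 FPKM in DT_1d, against 117, 0.0897 and 13.0 FPKM in C_1d. It was at 13.4, 119 and 12.5 FPKM in DT_10d, against 93.8, 31.1 and 4.99 FPKM in C_10d, and each group held high and low libraries. TCONS_00060320, alone in XLOC_019210, was most like the sum of XLOC_009318, with a Pearson correlation of 0.952 over 17 libraries on log2(FPKM + 0.1). It was at 0.0364 FPKM in DT_1d replicate 3 and 0 in DT_5d replicate 3, the same libraries that were low in XLOC_009318. On FPKM as deposited without the log the correlation was 0.822, and it was 0.702 without these 2 libraries. On scaled FPKM without the log it was 0.766, and 0.493 without them.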

How the data were processed

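RNA-seq of pooled honey bee brains gave 18 libraries, 3 in each of 6 groups named in the labels. Reads had been aligned by the authors to Amel_HAv3.1 (Hisat2), and transcripts were assembled (StringTie), merged (Cuffmerge) and classed against the annotation (Cuffcompare). The deposited values are Cuffdiff FPKM, 1 per transcript and library. The versions of the aligner and assembler and the normalization between libraries were not given in the sources used here. Since FPKM are not counts, depth could not be read from them and the SD between libraries stands for the precision.

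The values were tested as log2(FPKM + 0.1) with limma 3.58.1 in R 4.3.3 (6 group means, eBayes with a trend) for 13730 features (9352 genes, 4378 lncRNAs) with at least 0.1 FPKM in at least 3 libraries. Calls needed a Benjamini-Hochberg adjusted p under 0.05 and a log2 difference beyond 1. A pseudocount understates changes of low transcripts. Adjusted p of single members and loci come from this fit. On simulated data for DT_10d against C_10d, 140 of 200 features changed by a log2 value of 2 were called (70%), with 7 false calls. In the share test 50 of 100 changed by 3 were called (50%), with 2 false calls. Where no feature was changed, the share test still called 2 and the test of levels 0. Scaling divided each library by its median ratio over 9119 genes above 0 in every library. Python 3.11.15, numpy 2.4.6, pandas 2.3.3 and matplotlib 3.10.9 were used for summaries.

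Named transcripts are the 12 of highest mean, the 4 largest called changes per comparison and direction, the members of a locus with a called share, those next to the limit of 1 FPKM, those named by the study, the 4 of lowest and of highest variation and those with all of their level in 1 library. The members and lists were chosen with earlier results of these data known. Alternatives were pseudocounts of 1 and 0.01, no filter, a mean of 0.5 FPKM, no trend, the replicate number as a block, scaling, quantile normalization, adjustment over lncRNAs alone, no fold threshold and each library left out. Added after seeing the data were the comparisons with 5 d, locus sums, DT_1d replicate 1 as deposited, scaling with the block, and the removal of the 2 lowest or farthest libraries from correlations. No column of another series was used.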

Additional observations from a re-analysis of the deposited data

Results flagged for a closer look

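For TCONS_00030751 the test of the difference between the age changes of DT and C passed the threshold, but the transcript was above 0 only in DT_10d among the libraries used and was selected and tested through that group alone, so the result was fixed by selection and is no evidence of a difference. Its log2 value of DT_10d over DT_1d less that of C_10d over C_1d was 9.55 in limma. The value rests on groups listed at 0, depends on the pseudocount of 0.1 and is no bound on a fold.

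The values left out also hold this transcript, with 52.5 FPKM listed for DT_1d replicate 1, the library whose lncRNA values equal those of DT_10d replicate 1, while both other DT_1d libraries and all C_1d libraries are listed at 0.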

How the results depend on the processing

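Of 1769 refits of 61 results of single transcripts, 1407 kept direction and call, 360 lost the call and 2 reversed, both for TCONS_00070958 in DT_10d over DT_1d (-0.01811 with scaling, -0.073 with scaling and the replicate block). Scaling gave 12 called members in DT_5d over DT_1d in place of 4, 1 in DT_5d over C_5d in place of 0, 10 in DT_10d over DT_1d in place of 29 and 9 in DT_10d over DT_5d in place of 25. Quantile normalization gave 8, 9 and 7 in DT_5d over DT_1d, DT_10d over DT_1d and DT_10d over DT_5d. In DT_5d over DT_1d the count was 2 with a pseudocount of 1, 0 with no filter, 7 with a mean filter, 2 without the trend and 2 adjusted over lncRNAs alone, which gave 16 in DT_10d over DT_5d. With the mean filter 2 were called in DT_5d over C_5d. Keeping the lncRNAs of DT_1d replicate 1 gave 0 in DT_5d over DT_1d, 13 in DT_10d over DT_1d, 1 in DT_10d over C_10d and 0 for the interaction. Locus sums gave 18 loci in DT_10d over DT_1d, 1 in DT_10d over C_10d and 0 for the interaction. The call of a changed share between DT and C (1) became 0 with a pseudocount of 1, no filter or the mean filter. Libraries of the same number correlated at -0.038 to 0.148, which gave no sign of a pairing by number but cannot exclude one. The replicate block gave 1 in DT_5d over DT_1d and 2 in DT_5d over C_5d, and with scaling 12 and 1, 9 in DT_10d over DT_1d and 9 in DT_10d over DT_5d. Leaving out each library in turn gave 0 to 0 calls in DT_1d over C_1d, C_10d over C_5d and DT over C at all ages, 0 to 6 in DT_5d over C_5d and in C_10d over C_1d and 0 to 12 in C_5d over C_1d (each highest without C_1d replicate 1). It gave 1 to 2 in DT_10d over C_10d (lowest without C_10d replicate 2 or DT_10d replicate 2), 20 to 31 in DT_10d over DT_1d (lowest without DT_1d replicate 3), 1 to 2 for the interaction (2 without C_1d replicate 2), 0 to 11 in DT_5d over DT_1d, 2 to 29 in DT_10d over DT_5d (2 without DT_5d replicate 2, 29 without C_1d replicate 1), 0 to 1 for shares between DT and C and 0 to 0 for shares with age. The number of members was 58, and was 56 by scaled mean and 47 by median. For fits with a library left out, shares of all features are given only where named above, so the other counts are no result about the members. The causes of these changes were not tested.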
